A study of Mus musculus with 2 samples.

Results

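Receptors on the surface of liver cells for vasopressin, catecholamines, glucagon, angiotensin and prostaglandin, together with the orphan receptor gene Gprc5b, were compared between livers of wild-type (WT) and E4bp4-LKO mice. The 7 genes were Avpr1a, Adra1a, Adra1b, Gcgr, Agtr1a, Ptger3 and Gprc5b, taken by gene symbol from probe sets with exactly 1 symbol in the platform annotation. They were selected on the same E4bp4-LKO minus WT difference that is given below, so their differences are a description and no test of genotype. Values were found for 6 of the 7 genes, among 22180 genes in all; Adra1a was not analysed here. Each of the 6 had a single probe set. The receptor name fits 5 of them by known ligand. Gprc5b, a member of the retinoic acid-inducible receptor family, has no settled hormone and is called a receptor gene only.

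Both groups were male mice placed at 2 months of age on a high-fat diet for 12 weeks, housed at 25 °C with 12 hours of light and 12 hours of dark. The groups differed in genotype, WT or E4bp4-LKO, the latter described as deficient in E4BP4, a transcription factor encoded by Nfil3. Liver RNA of several mice was pooled within a genotype, and each pool was hybridised to 1 Affymetrix array. The number of mice in a pool, the hour of collection, the deleted part of Nfil3 and the cell type targeted by the deletion are unknown from the labels. With 1 array a group there are no replicates: no value below has a replicate error, and every difference describes these 2 arrays.

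G protein coupled receptors carry hormone signals into hepatocytes by a few shared routes. Glucagon acts through Gs, adenylyl cyclase and cyclic AMP, which promote glycogen breakdown and glucose production. Vasopressin, noradrenaline at the receptors encoded by Adra1a and Adra1b, and angiotensin act through Gq, phospholipase C and calcium, which also activate glycogen phosphorylase. The prostaglandin receptor encoded by Ptger3 acts mainly through Gi, which lowers cyclic AMP. E4BP4 is a repressor of the basic leucine zipper family that binds the D-box, a DNA element it shares with the activators DBP, TEF and HLF.

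The promoters of the 2 receptor genes that differed most, Avpr1a and Gprc5b, are shown because E4BP4 acts by binding DNA near its targets. Each run is the 250 bases before the RefSeq start in build GRCm38.p6, read along the gene's own strand, from chr10:122448249-122448498 on the plus strand for Avpr1a and from chr7:118995212-118995461 on the minus strand for Gprc5b. Capitals mark the motif TGACG, the core of the cyclic AMP response element.
Avpr1a: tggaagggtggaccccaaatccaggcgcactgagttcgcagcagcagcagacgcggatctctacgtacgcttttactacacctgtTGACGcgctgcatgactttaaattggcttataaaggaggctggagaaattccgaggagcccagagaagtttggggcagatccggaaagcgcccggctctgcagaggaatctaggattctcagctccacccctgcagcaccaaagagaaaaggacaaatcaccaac
Gprc5b: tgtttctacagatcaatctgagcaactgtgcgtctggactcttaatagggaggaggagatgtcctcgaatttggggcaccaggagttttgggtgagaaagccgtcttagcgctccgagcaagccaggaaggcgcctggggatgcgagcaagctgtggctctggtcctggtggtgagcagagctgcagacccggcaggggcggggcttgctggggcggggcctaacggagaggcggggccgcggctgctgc
The D-box core was searched as TTANGTAA on both strands, from 250 bases before to 50 bases after each start. It was in none of the 6 starts listed for 5 of the receptor genes (Avpr1a, Gcgr, Ptger3, Gprc5b and 2 starts of Adra1b), and in 2.32% of the 32851 promoters of the same length. The E-box CACGTG, the element of the clock activators, was also in none of the 6 starts and in 7.15% of all promoters. The full cyclic AMP response element TGACGTCA was in none of them and in 1.79% of all promoters. Its core TGACG, which the full element contains, was in 1 of the 6, that of Avpr1a at position -165 from the start, and in 20.8% of all promoters. These counts say only that the letters are or are not in these windows. The 250 bases shown held 12 CG dinucleotides and 53.6% G and C for Avpr1a and 14 and 62.4% for Gprc5b, beside medians of 6 and 52.4% over all promoters.

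Nfil3, the targeted gene, had a log2 intensity of 5.94 on the WT array and 4.47 on the E4bp4-LKO array, a log2 difference of -1.47. The difference has the direction of the labels, although whether the probes lie in the deleted part is unknown. The hepatocyte marker Alb was at 12.77 on both arrays and Hnf4a at 10.12 and 10.25, and the array medians were 3.74 and 3.75. Alb lay near the array maxima of 12.78 (WT) and 12.82 (E4bp4-LKO), where a difference may not show. A floor was set at 4.20 on the log2 scale, the median over genes of their mean on both arrays, and 11090 genes lay above it. On the E4bp4-LKO array 1.51% of these passed 1.5-fold upwards and 2.06% passed it downwards. Their median difference was -0.02 and their central 95% lay between -0.54 and 0.49. Among 555 of these genes with 2 probe sets, the differences of the probe sets of a gene had a standard deviation (SD) of 0.22, which measures disagreement between probes and not between mice.

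Of the 6 receptor genes with a value, 5 lay above the floor. On the E4bp4-LKO array 1 was at least 1.5-fold higher (Avpr1a), beside 1.51% of all genes above the floor, and 1 at least 1.5-fold lower (Gprc5b), beside 2.06%. The median difference of the 5 was 0.14. Because these differences chose the genes, nothing is read from the counts.

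**Figure D1:**
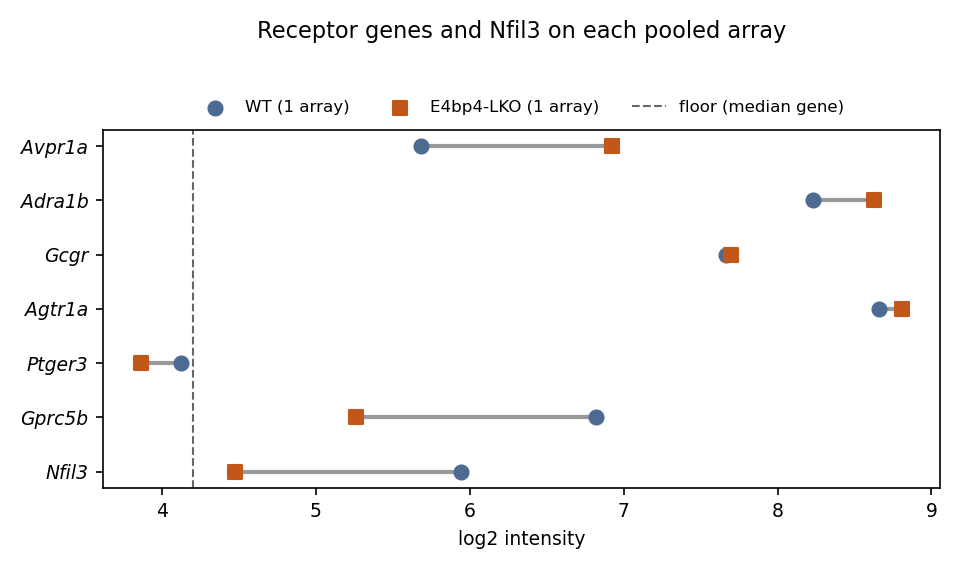
Log2 intensity of each receptor gene and of Nfil3 on the WT array (circles) and the E4bp4-LKO array (squares), with 1 array per genotype and no error bars; the dashed line is the floor of 4.20. Avpr1a lies to the right on the E4bp4-LKO array, Gprc5b and Nfil3 lie to the left, Gcgr nearly coincides at 7.66 and 7.70, and Ptger3 lies below the floor on both arrays.

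Avpr1a encodes the V1a vasopressin receptor, the Gq-coupled receptor by which vasopressin raises hepatocyte calcium. Its probe set 17237762 (Entrez Gene 54140) read 5.68 on the WT array and 6.92 on the E4bp4-LKO array. The E4bp4-LKO pool was thus the higher, by 1.24 on the log2 scale or 2.36-fold, and both values were clear of the floor. The difference was the 23rd highest among the 11090 genes above the floor. The other receptors of this family were below the floor on both arrays: Avpr1b, the pituitary vasopressin receptor, at 2.65 and 2.71, Avpr2, the kidney receptor for water retention, at 3.95 and 3.90, and Oxtr, the oxytocin receptor, at 3.57 and 3.64 (WT, then E4bp4-LKO). Avpr1a was the 1 member of its family of 4 with a level above the floor.

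Adra1b encodes an alpha-type adrenergic receptor of hepatocytes that also couples to Gq. Its probe set 17261982 (Entrez Gene 11548) read 8.23 on the WT array and 8.63 on the E4bp4-LKO array. The difference of 0.40, or 1.32-fold, ran the same way as that of Avpr1a but stayed under the 1.5-fold threshold and inside the central 95% of genes. It ranked 509th from the highest. Of the adrenergic receptor genes listed, Adra2c was the other with a value, and it lay below the floor at 2.65 and 2.60.

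Agtr1a, the main angiotensin II receptor of rodent liver and likewise coupled to Gq, read 8.66 (WT) and 8.81 (E4bp4-LKO) on probe set 17286271 (Entrez Gene 11607). The difference of 0.14 was smaller than the SD of 0.22 between probe sets of a gene. Agtr1b, its near-identical paralog, read 3.02 and 2.98. Probe sequences were not examined, so how far the paralogs share signal was not tested. Agtr2, at 2.98 and 2.81, and Mas1, a receptor for an angiotensin fragment, were below the floor on both arrays.

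Gcgr, the glucagon receptor, read 7.66 on the WT array and 7.70 on the E4bp4-LKO array on probe set 17259401 (Entrez Gene 14527). The difference of 0.03 was the smallest of the 6 and well inside the SD between probe sets. Of the 15 receptors of the glucagon and secretin type, 6 lay above the floor, with a median difference of 0.01 and none past 1.5-fold. Among them Adcyap1r1, a receptor for the neuropeptide PACAP, read 4.70 and 4.29 (-0.40), and Vipr1, a receptor for vasoactive intestinal peptide, 5.95 and 6.08 (0.13). Glp1r, the receptor for the gut hormone GLP-1, was below the floor at 4.16 and 3.90.

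Ptger3, the EP3 prostaglandin receptor gene, read 4.12 on the WT array and 3.86 on the E4bp4-LKO array on probe set 17403866 (Entrez Gene 19218). Both values were below the floor, so the difference of -0.26 was not ranked and its direction is uncertain. All 7 prostanoid receptors with a value lay below the floor, including the prostaglandin E receptor genes Ptger2, at 3.52 and 3.89, and Ptger4, with a difference of -0.21.

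Gprc5b read 6.82 on the WT array and 5.26 on the E4bp4-LKO array on probe set 17495610 (Entrez Gene 64297). The E4bp4-LKO pool was the lower, by -1.56 on the log2 scale or 2.95-fold, the ninth lowest of the genes above the floor, while Nfil3 was at rank 11. Both values were above the floor. Gprc5c, its relative with a level above the floor, read 5.71 and 5.43, a difference of -0.28 that did not reach 1.5-fold. The 3 other relatives, Gprc5a, Gprc5d and Gprc6a, lay below the floor with differences between 0.0036 and 0.19.

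**Figure D2:**
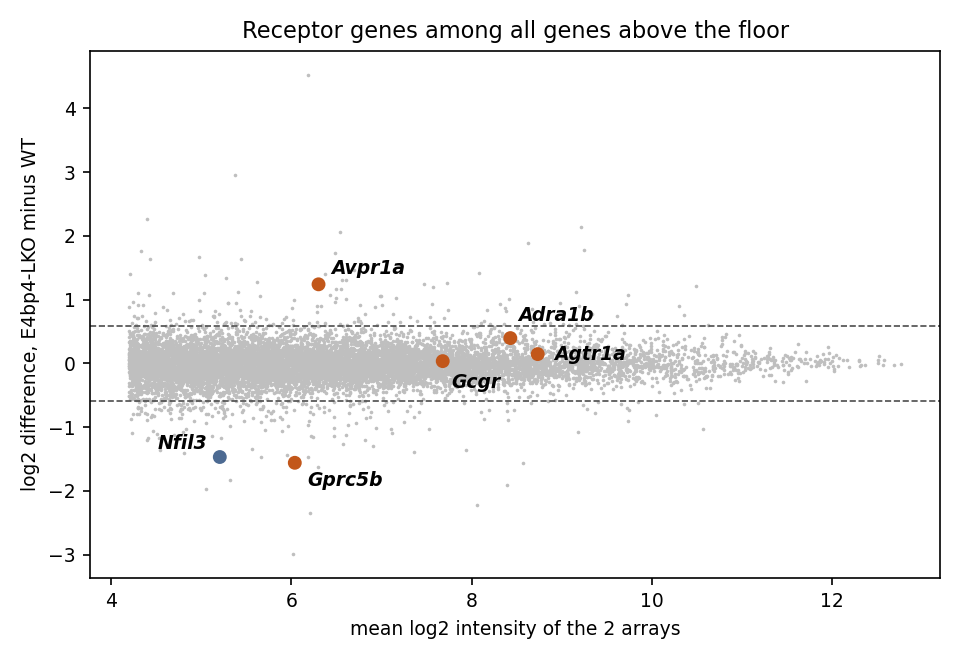
Log2 difference (E4bp4-LKO minus WT) against the mean log2 intensity of the 2 arrays for the 11090 genes above the floor (grey), with the 5 receptor genes above the floor in orange and Nfil3 in blue; dashed lines mark 1.5-fold. Avpr1a (1.24) and Gprc5b (-1.56) lie outside the dashed lines, while Adra1b, Agtr1a and Gcgr lie between them.

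Set side by side by route, the differences of the Gq-coupled receptor genes Avpr1a, Adra1b and Agtr1a were 1.24, 0.40 and 0.14. That of the Gs-coupled Gcgr was 0.03, and that of the Gi-coupled Ptger3, below the floor, was -0.26. Of these, Avpr1a alone passed 1.5-fold. The genes were chosen on these values, so no pattern by route is read from them. Under the likeness rule, the gene of the receptor and signalling lists with the nearest difference over these 2 arrays was taken from 137 genes. For Avpr1a it was Nr4a1, an immediate early nuclear receptor gene that responds to cyclic AMP (1.40). For Adra1b it was Hpgd, which degrades prostaglandins (0.39), for Agtr1a Rgs4, a regulator of G protein signalling (0.15), and for Gcgr Plcb3, a phospholipase C (0.03). For Gprc5b the nearest was Rgs16 at -0.73, less than a 2-fold difference beside 2.95-fold. With 2 arrays each gene gives 1 difference, so this likeness is only nearness on that scale.

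Beyond the 7 receptors, the other genes of hormone signalling were described by 13 lists of receptors, transducers, regulators, outputs and ligand enzymes. Together these held 137 genes above the floor other than the 7. On the E4bp4-LKO array 3 of the 137 passed 1.5-fold upwards (1.51% of all genes did) and 4 downwards (2.06% of all genes), and their median difference was -0.04 beside -0.02 for all genes. The 3 higher genes were Sucnr1, Gna14 and Nr4a1. The 4 lower genes were Chrm3, Adcy6, Gnai1 and Rgs16. The same shares of all genes, 1.51% upwards and 2.06% downwards, stand beside the count of each list below, and nothing is read from single genes past the threshold.

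Among 23 other hormone and metabolite receptors above the floor, 1 was at least 1.5-fold higher, 1 lower, and the median difference was -0.06. Sucnr1, the succinate receptor, read 7.32 on the WT array and 8.15 on the E4bp4-LKO array (0.83). Chrm3, a muscarinic acetylcholine receptor, read 4.75 and 4.14 (-0.61), the latter below the floor. S1pr2, a sphingosine phosphate receptor (-0.45), F2r, the thrombin receptor (-0.43), and P2ry2, a nucleotide receptor (-0.43), came next without passing 1.5-fold.

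In the Gq and calcium list, 25 genes lay above the floor with a median of -0.11, 9 above 0 and 16 below. Gna14, a Gq-family alpha subunit, was the 1 gene past the threshold, at 5.68 (WT) and 6.37 (E4bp4-LKO), a difference of 0.69. The more widely expressed alpha subunit genes Gnaq (7.41 and 7.17) and Gna11 (8.67 and 8.52) differed by -0.25 and -0.15. Of the downstream genes, Prkcb, a protein kinase C (-0.39), Plcb2, a phospholipase C (-0.37), and Stim1, the calcium store sensor (-0.36), were farthest from 0, and Itpr2, a calcium release channel gene, differed by 0.03.

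In the Gs and cyclic AMP list, 24 genes lay above the floor with a median of 0.00, and 1 was at least 1.5-fold lower. Adcy6, an adenylyl cyclase, read 6.25 on the WT array and 5.57 on the E4bp4-LKO array (-0.69). Prkar1b, a regulatory subunit of protein kinase A, read 4.12 and 4.70 (0.58), just short of the threshold and from a WT value below the floor. Pde7b, a cyclic AMP phosphodiesterase, differed by 0.39, and Prkaca, the catalytic subunit, by 0.15. Of 11 Gi and beta-gamma subunit genes above the floor (median 0.07), Gnai1 was lower at 5.36 and 4.64 (-0.72), whereas Gnai2 (9.05 and 8.99) and Gnai3 differed by -0.05 and -0.14.

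Among 14 receptor regulators above the floor, the median was -0.11 and 1 passed the threshold. The list holds kinases, arrestins and RGS proteins, which end signalling, and also the accessory protein genes Ramp1, Ramp2 and Mrap, which serve receptor transport and ligand response. Rgs16, a GTPase activator for Gi and Gq, read 10.12 on the WT array and 9.38 on the E4bp4-LKO array (-0.73). Grk5, a receptor kinase, read 5.45 and 5.88 (0.43), and Arrb1, an arrestin, 6.63 and 6.39 (-0.24).

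The list of glycogen and gluconeogenic outputs had 23 genes above the floor and a median of -0.03, with 11 genes above 0 and 12 below. Nr4a1 was the 1 gene at least 1.5-fold higher, at 5.68 and 7.08 (1.40), while its relative Nr4a2 read 4.96 and 4.46 (-0.50). The glycogen-targeting phosphatase subunit genes Ppp1r3b (0.58) and Ppp1r3c (0.55) lay just under the threshold. G6pc, which releases glucose from glucose phosphate, read 10.60 and 11.02 (0.42), and Pck1, the entry enzyme of gluconeogenesis, 11.30 and 11.40 (0.10). Pygl, the liver glycogen phosphorylase through which glucagon and the Gq-coupled hormones release glucose, read 9.89 and 9.83 (-0.05).

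On the ligand side, 11 genes lay above the floor, none passed 1.5-fold and the median was -0.07. Agt, the angiotensin precursor made by hepatocytes, read 10.01 (WT) and 9.95 (E4bp4-LKO). Hpgd read 9.79 and 10.18 (0.39) and Ptges2, a prostaglandin E synthase, 5.62 and 5.11 (-0.50). Ptgs2, the inducible enzyme of prostaglandin synthesis, was below the floor at 2.76 and 2.40.

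**Figure D3:**
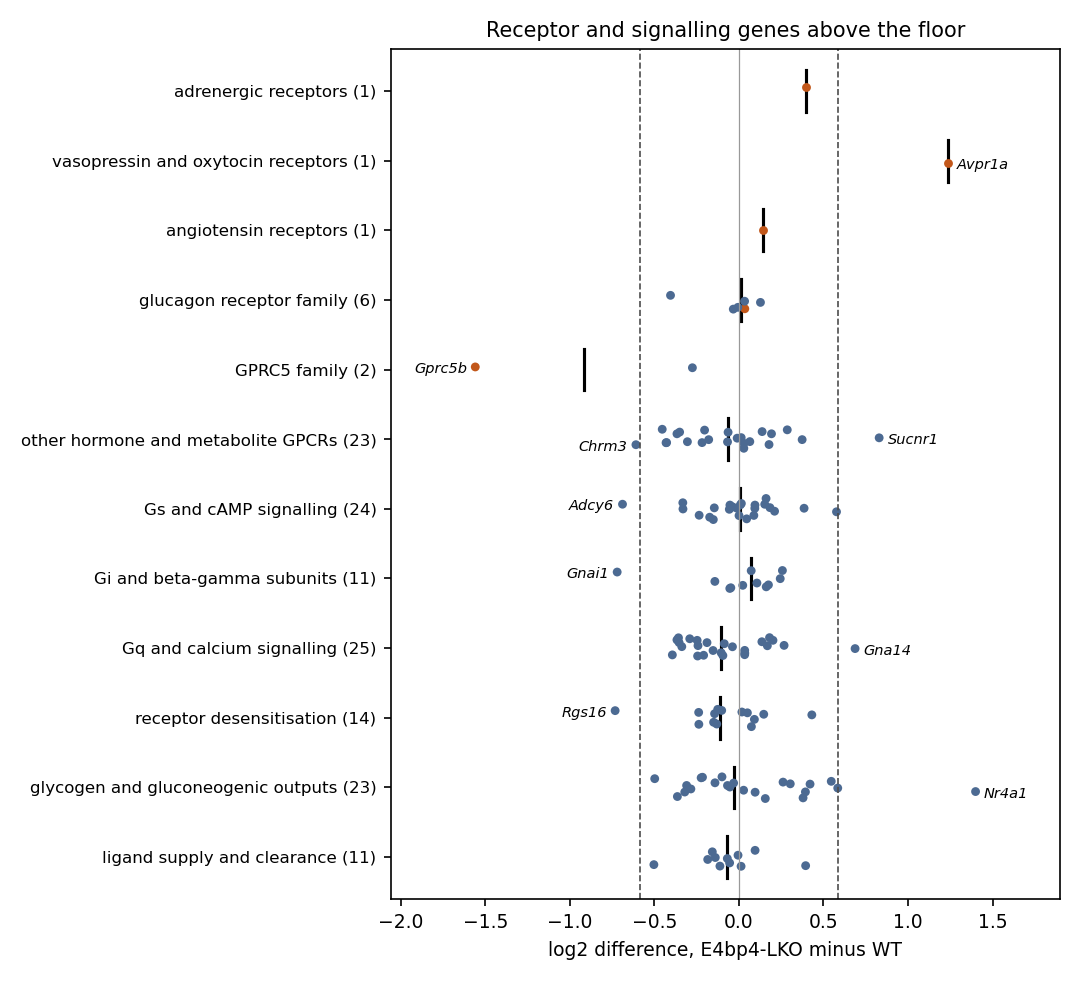
Log2 difference (E4bp4-LKO minus WT) of every gene above the floor in each receptor, transduction, regulator, output and ligand list, with the number of genes in brackets; vertical bars are list medians, dashed lines mark 1.5-fold and orange points are the receptor genes under study. Avpr1a, Gprc5b and 7 further genes are labelled as lying past 1.5-fold.

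Cell type markers also differed between the pools. Beside the counts below, 1.51% of all genes above the floor passed 1.5-fold upwards on the E4bp4-LKO array and 2.06% downwards. The median difference of all these genes was -0.02. Markers of skeletal muscle were lower on the E4bp4-LKO array in 7 of 7 genes above the floor, all by at least 1.5-fold, with mean log2 levels of 6.32 (WT) and 5.12 (E4bp4-LKO). Markers of stellate cells and fibroblasts were lower in 13 of 14, 3 of them by at least 1.5-fold, with means of 6.56 and 6.07. These differences have the direction of Gprc5b, and their part in its difference was not tested. In pooled tissue RNA, fewer cells of a type and less RNA per cell cannot be told apart. Which tissue the skeletal muscle signal came from was not tested.

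Endothelial markers were lower in 9 of 10 genes with none past 1.5-fold (means 7.78 and 7.57), and markers of Kupffer cells and macrophages in 7 of 12, with a median of -0.06 and 2 past it. Those 2 were Gpnmb (-1.98), at 6.04 (WT) and 4.06 (E4bp4-LKO, below the floor), and Trem2 (-0.67). The 5 higher genes of that list, Clec4f, Timd4, Vsig4, Cd5l and Marco, differed by between 0.07 and 0.35. The defining cholangiocyte markers Krt19 and Krt7 and the adipocyte markers Adipoq, Lep and Plin1 lay below the floor on both arrays. Of the same lists, Epcam (4.52 and 4.83), Sox9 (6.10 and 6.02), Fabp4 (7.84 and 7.75) and Retn (4.67 and 4.55) lay above it, none past 1.5-fold. In the direction of Avpr1a (1.24) but far smaller, general hepatocyte markers were higher in 6 of 8 genes with a median of 0.10. Among them 1, Foxa3, passed 1.5-fold (0.63). Periportal markers were higher in 6 of 8 genes with a median of 0.12. Ass1 passed 1.5-fold (0.65) at the low levels of 4.95 and 5.59, while Aldh1b1 (-0.52) and Hsd17b13 (-0.28) were lower. Pericentral markers had a median of -0.12. Lymphocyte markers were higher in 3 of 4 genes above the floor with a median of 0.26, and Cd4 passed 1.5-fold (0.66). Keratinocyte genes were higher in 3 of 4, by between 1.76 and 2.95, while Sprr1a was lower (-2.22). The 3 higher genes, Krt4, Krt13 and Krtdap, were below the floor on the WT array, at between 3.3 and 3.9. They passed the floor only through the E4bp4-LKO array, so their count is partly set by that filter. The part of the marker genes of these lists in the difference of Avpr1a was not tested.

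**Figure D4:**
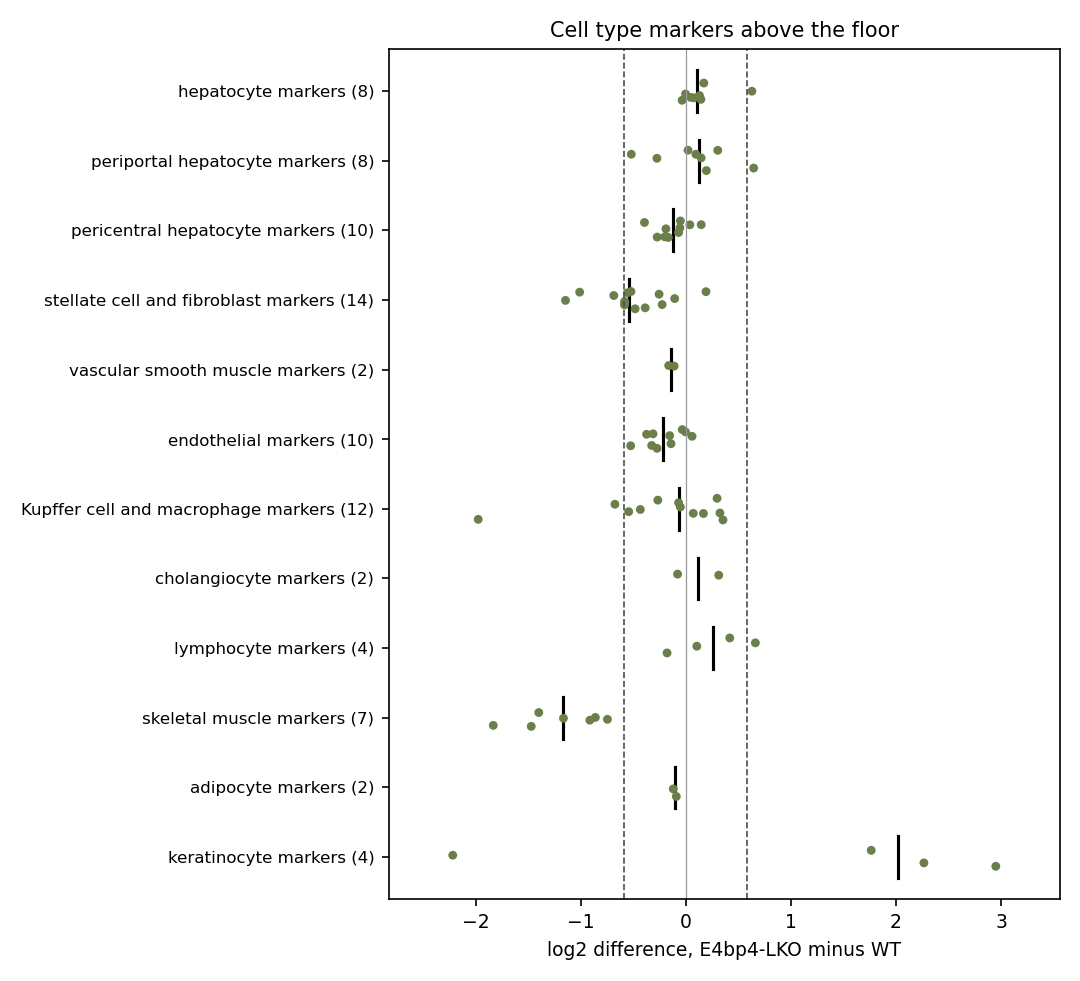
Log2 difference (E4bp4-LKO minus WT) of cell type marker genes above the floor, by list, with the number of genes in brackets; vertical bars are medians and dashed lines mark 1.5-fold. All 7 skeletal muscle markers and 13 of 14 stellate cell and fibroblast markers lie left of 0, and most hepatocyte markers lie near 0.

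Clock genes differed as well. Of 16 core clock genes above the floor, 2 passed 1.5-fold upwards on the E4bp4-LKO array and 5 downwards, Nfil3 included. The shares over all genes above the floor were 1.51% upwards and 2.06% downwards. Arntl, the activator BMAL1, read 5.83 (WT) and 6.74 (E4bp4-LKO), and Npas2 was the other higher gene (0.60). The lower genes beside Nfil3 were Dbp, a D-box activator, at 9.72 and 8.65, Per3 (-0.68), Nr1d1 (-0.65) and Ciart (-0.63). The other D-box activators, Tef (-0.22) and Hlf (-0.03), did not pass 1.5-fold, nor did Clock (-0.05) or Per1 (-0.03). The labels give no hour of collection, so genotype and a difference in hour cannot be told apart for Avpr1a, Gprc5b or the other receptor genes.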

How the data were processed

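Liver RNA pooled from several male mice per genotype was measured on 1 array for WT and 1 for E4bp4-LKO. Total RNA was extracted with TRIzol and biotinylated from 400 ng, per the labels' protocols. Each probe set has 1 deposited log2 intensity per array. Per the submitters' processing notes, RMA and R 3.4.0 were used. RMA subtracts background, equalises the arrays' distributions and summarises probes, which shrinks differences of dim genes. The array annotation's genome build is not given in the sources used here.

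Of 41345 probe sets, 23521 had 1 gene symbol, 1814 several and 16010 none; those with 1 were averaged per symbol. All 6 measured receptor genes matched the RefSeq table of GRCm38.p6 by Entrez identifier. Differences are E4bp4-LKO minus WT. With 1 array per group no test was made, and the number of arrays limits the precision. Lists are summarised by counts past 1.5-fold and medians above the floor. The receptor genes and lists were chosen with earlier results of these data known. Named from each receptor, signalling, output, ligand and clock list are the genes above the floor and past 1.5-fold. Up to 3 more of the largest differences, close relatives of the receptors, and some best known members chosen after their values were seen are also named. Of the cell type lists only some genes are named, and unnamed ones may have passed 1.5-fold. Promoters came from RefSeq (GRCm38.p6), which listed 5 of the 7 receptor genes. Python 3.11.15, pandas 2.3.3, NumPy 2.4.6 and statsmodels 0.14.6 were used, and the calculations were tested on simulated data. Alternatives covered scaling, intensity trend, probe sets, floor and fold threshold.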

Additional observations from a re-analysis of the deposited data

How the results depend on the processing

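No paired analysis was possible because each genotype has 1 array, and for the same reason no replicate could be left out. The differences of the 6 receptor genes moved by less than the probe-set SD of 0.22 under the 5 alternatives of scaling, trend and probe sets: Avpr1a stayed between 1.23 and 1.26, Adra1b between 0.39 and 0.41, Gcgr between 0.025 and 0.053, Agtr1a between 0.13 and 0.16, Ptger3 between -0.27 and -0.24 and Gprc5b between -1.57 and -1.53. The 60 list medians compared also moved by less. For the 6 receptor genes, part of this could not come out otherwise. Each had 1 probe set, so taking the highest probe set could not move them. Adding probe sets with several symbols left their values unchanged. Centring the arrays on their medians of 3.74 and 3.75 shifts every gene by the same small amount. The counts of genes past the threshold changed more. Quantile normalization over probe sets with 1 symbol, and likewise removal of the intensity trend, gave 5 higher genes in the signalling lists in place of 3. Without a floor, 295 genes were higher and 365 lower in place of 167 and 229. A floor at the 75th percentile, 6.28, gave 84 higher and 72 lower, left 1 lower gene in the signalling lists and 0 lower receptor genes, since Gprc5b has a mean of 6.04. Avpr1a, with a mean of 6.30, lay only just above that floor. At the lowest fold threshold tried, 0.32 on the log2 scale, 2 receptor genes were higher, the signalling lists held 13 higher and 20 lower genes, and 821 genes were higher and 986 lower in all. At 2-fold, 43 genes were higher and 45 lower, the signalling lists held 1 higher and 0 lower, and Avpr1a and Gprc5b stayed past it. Each of the 6 measured receptor genes, Avpr1a and Gprc5b included, rests on a single probe set, which limits what it shows. Values near the floor, also from single probe sets, further limit what Ptger3, Chrm3 and Prkar1b show.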
